A study of Mus musculus with 20 samples.

Results

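The 10 genes described here, Gpnmb, Mamdc2, Dkk2, Baiap2l2, Spp1, Igf1, Itgax, Fam20c, St14 and Cspg4, were picked by name, out of the 21315 genes listed, as genes near off in WT microglia and strongly raised in APP-KI microglia. The values that chose them are therefore those of APP-KI against WT, and these are given as a description with no test. Igf1 and Cspg4 were also named, with values of these data known, as genes whose level without plaques might change with loss of C3ar1, so their values in C3aR-KO against WT are a description too. Microglia, gated as CD45mid CD11b+ cells, were sorted from the brains of 9-month-old C57BL/6 mice, males and females in about equal numbers, and their RNA was sequenced as 20 libraries in 6 conditions. 4 conditions came from littermates: WT (n = 3), APP-KI (n = 3), C3aR-KO (n = 3) and APP-KI; C3aR-KO (n = 5), called the double mutants below. APP-KI mice carry the APP NL-G-F knock-in alleles: in their own App gene the Aβ part is made human and bears 3 familial Alzheimer mutations, Swedish, Iberian and Arctic, and the zygosity of the animals analysed is not given in the sources used here. C3aR-KO is a whole-body loss of C3ar1 from a line backcrossed to C57BL/6J for 5 generations, so cells other than microglia lacked the receptor too. The other conditions, labelled WT, C3aR-positive (n = 3) and APP-KI, C3aR-positive (n = 3), came from mice of a C3ar1 fl/fl line that carries a Td-tomato reporter for C3ar1, which the littermate groups lack, and held only cells sorted as Td-tomato positive. Whether each library is 1 mouse is not stated, so the tests measure the spread between libraries.

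Microglia that meet amyloid plaques leave their resting program and switch on a shared set of genes, many of them for proteins that are secreted or sit at the cell surface, through which the cell binds matrix, trims other proteins or signals to its neighbours. Osteopontin, encoded by Spp1, is a secreted phosphoprotein that binds integrins and CD44, and CD11c, encoded by Itgax, is an integrin α subunit often used to mark these plaque-associated cells. C3aR, encoded by C3ar1, is the receptor for the complement fragment C3a, and in the brain it is found mostly on microglia.

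The unit throughout is a scaled value, the deposited value times 1 constant for all libraries (35.2). Total reads on genes lay between 13939559 and 30388941 in the C3aR-positive libraries and between 42239056 and 76608464 in the other 14. A single read is worth a scaled value of 0.0132 to 0.0786, depending on the library. 5 libraries stood apart by their number of genes with a read: APP-KI 4, C3aR-KO 1, C3aR-KO 2 and double mutant 1 had 12387 to 13250, and APP-KI 5 had 21219, against 14888 to 17450 in the other 15. All 5 belong to the earlier of 2 library series, as the numbers given to the libraries show, which also holds WT 4 and double mutant 2. The later series holds WT 5 and 6, APP-KI 6, C3aR-KO 3 and double mutants 3 to 5, and the C3aR-positive libraries form a series of their own. 8 microglial markers summed to at least 9146 in every library, 8 neuronal ones to at most 24.3.

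C3ar1 was checked first. Its scaled value was 276, 329.9 and 339.99 in WT, 165, 315 and 388 in APP-KI, 68.1, 39.9 and 65.7 in C3aR-KO, and between 61.9 and 80.4 in the 5 double mutants, so all 8 knockout libraries had less of it than any of the 6 WT and APP-KI libraries. The libraries labelled WT, C3aR-positive had 71.0, 81.2 and 37.6, at the level of the knockouts, whereas those labelled APP-KI, C3aR-positive had 383, 251 and 201. The C3ar1 reads thus go against the sort named in the label for the WT libraries, and any direction drawn from those libraries below carries this limit.

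4 of the 10 genes, Gpnmb, Mamdc2, Dkk2 and Baiap2l2, were near off without the APP-KI alleles, with scaled values of at most 3.95 in all 9 such libraries. Gpnmb is a transmembrane glycoprotein of phagocytes and pigment cells, Mamdc2 a secreted protein with MAM domains, Dkk2 a secreted modulator of Wnt signaling through LRP5 and LRP6, and Baiap2l2 an I-BAR protein that bends the membrane from its cytoplasmic side, so it is neither secreted nor a surface protein. The other 6 had reads in every one of these libraries, Cspg4 at scaled values of 2.03 to 12.03, Igf1 at 4.62 to 30.1, Spp1 at 1.21 to 40.8, Fam20c at 18.6 to 38.3, St14 at 25.0 to 48.7 and Itgax at 26.98 to 70.4. The last 5 ranges overlap each other, and none takes gene length into account, but for Itgax, Fam20c and St14, never below 18.6, they go against the description of the whole set as near off.

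Per kilobase of exon, the APP-KI libraries held most of Spp1, with a mean scaled value of 530.5, then of Itgax (251) and Gpnmb (124), and least of Igf1 (19.8) and Cspg4 (12.4). In WT the same measure gave 12.8 for Spp1, 7.35 for Itgax, 5.17 for St14, 4.198 for Fam20c, 2.23 for Igf1, 0.268 for Cspg4 and 0.116 for Gpnmb, so per length Spp1 was the highest of the 10 in WT too. The exons of Spp1 (chr5:104435118-104441050, GRCm38) share 309 bases with Gm42793, an annotated gene on the same strand that is not listed, and the exons of the other 9 genes overlap no other annotated gene.

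**Figure D1:**
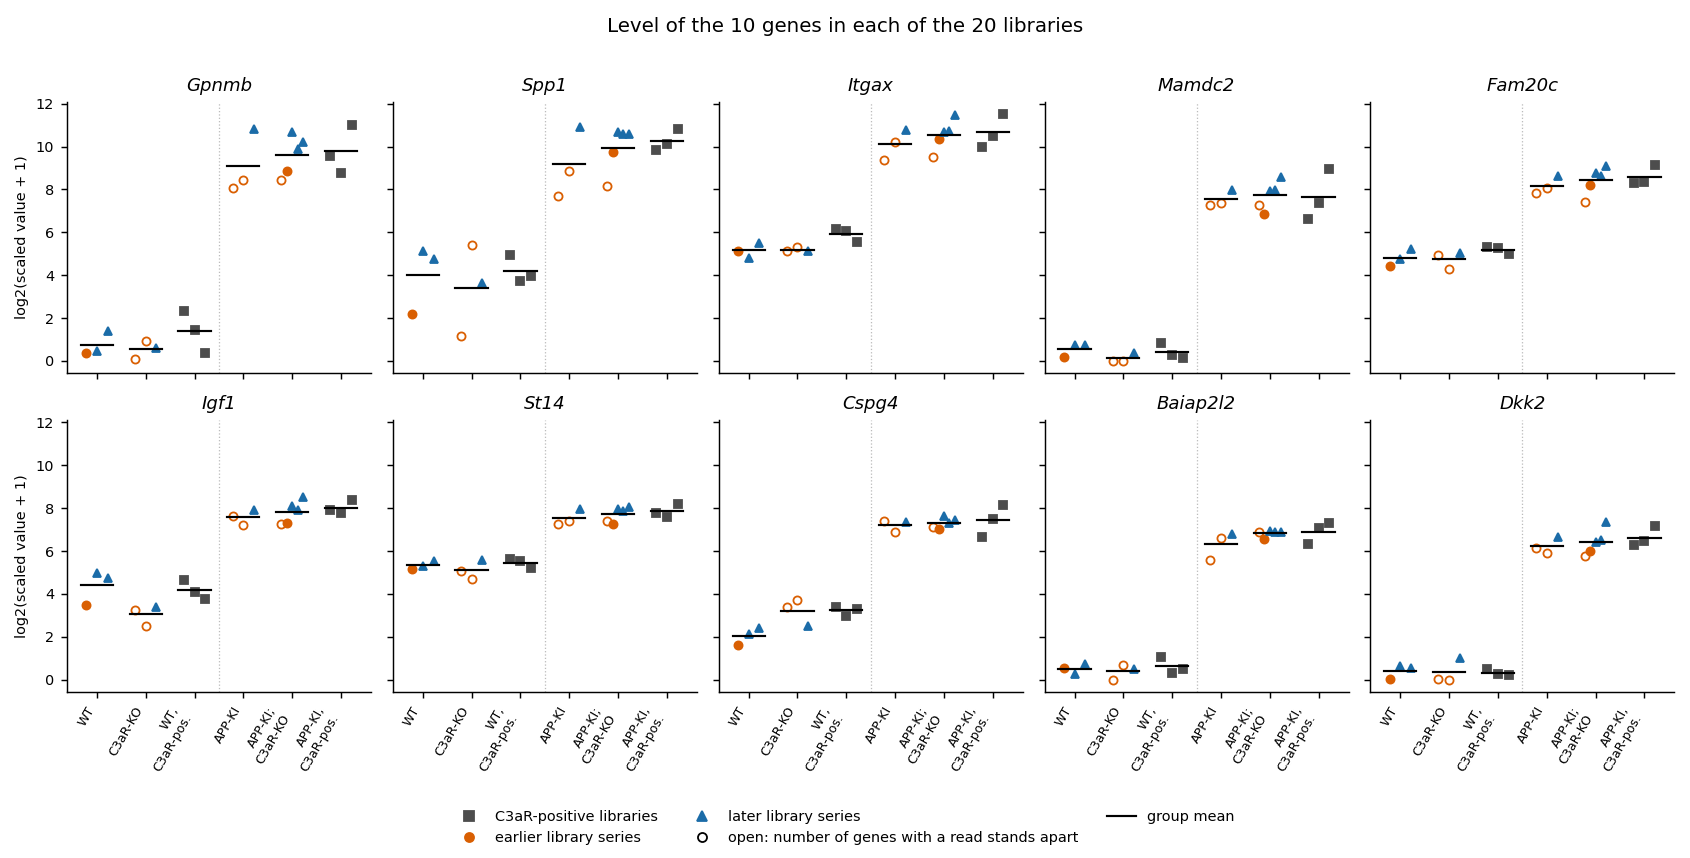
Level of each of the 10 genes as log2(scaled value + 1), 1 point per library, in the 6 conditions. Squares are the C3aR-positive libraries, circles the earlier and triangles the later library series, open circles the 5 libraries that stand apart by their number of genes with a read, and lines the group means; in each gene every library with the APP-KI alleles lies above every library without them, from the narrowest gap in St14 (3.09-fold) to the widest in Mamdc2 (127-fold).

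Gpnmb, which lies at chr6:49036546-49070929 on the plus strand, had the largest difference of all genes tested in both selecting comparisons. Its scaled values were 0.296, 0.370 and 1.60 in WT, 264, 341 and 1824 in APP-KI, 3.95, 1.76 and 0.285 in WT, C3aR-positive, and 744, 439.7 and 2065 in APP-KI, C3aR-positive. No APP-KI library came near any WT library, although the APP-KI libraries differed among themselves by several fold. On the log2(scaled value + 1) scale, which understates the change of a gene at a low level, APP-KI exceeded WT by 8.79 (standard error 0.46) and APP-KI, C3aR-positive exceeded WT, C3aR-positive by 8.40 (standard error 0.57).

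Mamdc2 was at rank 2 in both comparisons, Dkk2 at rank 4 and Baiap2l2 at rank 5, and the non-member at rank 3 was Cst7, a cystatin of phagocytes. Mamdc2 had 0.148, 0.648 and 0.662 in WT, from 10, 49 and 46 reads, and 155, 164 and 252 in APP-KI. Dkk2 had 0.0148, 0.542 and 0.432 in WT, from 1, 41 and 30 reads, and 70.1, 58.5 and 101 in APP-KI. Baiap2l2 had 0.459, 0.198 and 0.662 in WT and 47.3, 97.1 and 109.6 in APP-KI. The WT level of these genes thus rests on few reads, while every APP-KI library held at least 2246 reads on each.

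The other members ranked lower, down to 113 of 12407 for St14 in all sorted cells and 179 of 12312 in the C3aR-positive cells. Spp1 differed by 5.75 (standard error 0.82) between APP-KI and WT, Cspg4 by 5.21 (0.31), Itgax by 5.17 (0.34), Fam20c by 3.62 (0.25), Igf1 by 3.48 (0.25) and St14 by 2.41 (0.16). Fam20c is a Golgi kinase that phosphorylates secreted proteins, osteopontin among them, and St14 encodes matriptase, a membrane-anchored serine protease. The choice by name leaves out genes that stood as high: just above and below St14 in all sorted cells were Plaur (2.41) and Cd274 (2.40), and just below Itgax was Plxna2 (4.97). All 10 did not overlap between APP-KI and WT, where 12.8% of all genes tested were higher without overlap and 2.22% were called higher at an adjusted p under 0.05. In the C3aR-positive libraries these shares were 17.8% and 13%. Since this contrast chose the genes, nothing is read from the counts.

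The double mutants against C3aR-KO compared mice with and without the APP-KI alleles in libraries outside the APP-KI against WT contrast, although the genes were chosen with earlier results of all these libraries known. All 10 genes rose. Limma with a mean-variance trend, over 12407 genes in the 14 libraries not selected on C3aR and with the library series as a term, called 10 of 10 higher, where 3.96% of all genes were called higher. The adjusted p-values ran from 2.27e-10 to 0.000105, and the 10 genes also did not overlap between the groups, as 6.34% of all genes did not in that direction. Gpnmb, Mamdc2, Dkk2 and Baiap2l2 passed the filter on low values only through the libraries in which they are high, so they had to differ. Igf1 and Cspg4 were named with their C3aR-KO values known, which are the baseline here, so both are a description. The count is read for Spp1, Fam20c, Itgax and St14. Among these the adjusted p-values (limma) ran from 4.74e-08 for St14 to 0.000105 for Spp1.

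Gpnmb had 0.0737, 0.912 and 0.500 in C3aR-KO and 352, 461, 1625, 956 and 1178 in the double mutants. This was again the largest difference among the members, 8.74 on the log2 scale (standard error 0.41), and even the lowest double mutant stood far above the highest C3aR-KO library. Mamdc2 had no read in C3aR-KO 1 and 2, which allows a scaled value of up to 0.0442 and 0.0472 at their depths, 0.281 in C3aR-KO 3, and 154, 116, 239, 254 and 377 in the double mutants, a log2 difference of 7.41 (0.24). Dkk2 had 1 read, no read and 65 reads in the 3 C3aR-KO libraries, scaled values of 0.0147, 0 and 1.02, and 52.9, 63.2, 85.1, 91.5 and 165 in the double mutants, a log2 difference of 5.86 (0.29).

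Baiap2l2 was the most even member among the double mutants. It had 118, 93.7, 122, 119 and 117 there, against 0, 0.582 and 0.422 in C3aR-KO, a log2 difference of 6.39 (0.31).

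Spp1 was the least even. It had 1.21, 40.8 and 11.4 in C3aR-KO and 283, 858, 1669.7, 1523 and 1517 in the double mutants. Its log2 difference of 6.07 therefore had the largest standard error of the 10, 0.73, and the highest adjusted p-value (0.000105, limma). The lowest double mutant and the highest C3aR-KO library were still several fold apart.

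Itgax had 33.8, 38.6 and 34.3 in C3aR-KO and 736, 1302, 1655, 1713 and 2807 in the double mutants, a log2 difference of 5.21 (0.30). Fam20c had 30.0, 18.6 and 31.4 against 169, 296, 434, 399.6 and 549, a log2 difference of 3.48 (0.22). St14 had 32.3, 25.0 and 46.3 against 170.3, 151, 251, 233 and 266, and its log2 difference of 2.46 was the smallest of the 10, with the smallest standard error, 0.14. These 3 genes had scaled values of at least 18.6 in every C3aR-KO library, so their bulk level did not rise from near 0. Whether single cells were off before cannot be told from bulk RNA.

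Igf1, the secreted growth factor of the insulin family, had 8.53, 4.62 and 9.62 in C3aR-KO and 151, 155, 277, 243 and 361 in the double mutants, a log2 difference of 4.54 (0.22). Cspg4, the NG2 proteoglycan known from oligodendrocyte precursors and pericytes, had 9.34, 12.03 and 4.64 against 137, 132, 200.1, 157 and 174, a log2 difference of 4.10 (0.28). The groups lay far apart for both genes, though from C3aR-KO levels that differed from WT in opposite directions, as described below.

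Markers of some other cell types were read beside these differences, 8 for each unless stated. Those of oligodendrocyte precursors summed to scaled values of 0.211 to 46.7 in the 11 libraries with the APP-KI alleles and to 1.89 to 9.84 without them, while Cspg4 lay at 101 to 284 with them. In C3aR-KO 1 and double mutant 1, 6 and 5 of the 8 had no read, and Cspg4 was 9.34 and 137 there. Both are libraries with few genes detected (12702 and 12387), in which markers at a low level can go without a read. Those of pericytes and smooth muscle summed to 8.53 to 135 with the APP-KI alleles and to 12.1 to 80.2 without them. In WT their sum (33.2 to 55.9) was above Cspg4 itself. Double mutant 1, with the lowest sum, had 137 of Cspg4. APP-KI 5, with the highest sums of both lists (46.7 and 135), had 119. Endothelial markers summed to more with the APP-KI alleles, 79.3 to 327 against 41.2 to 97.7. Within that list Flt1 lay at 78.4 to 314 against 6.98 to 22.2, and the other 7 summed to 0.905 to 57.5 against 34.2 to 75.5. Markers of border macrophages, the macrophages of the meninges and vessels, were lower with the APP-KI alleles, at 222 to 425 against 438 to 1299.8. Those of dendritic cells summed to 36.1 to 68.2 with the alleles and to 54.4 to 106 without them. For T and NK cells, 7 markers summed to 2.73 to 68.4 and to 5.76 to 62.9. The part of all these cell types in the differences of the 10 genes was not tested. In bulk RNA, more cells of one kind and more RNA per cell cannot be told apart.

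**Figure D2:**
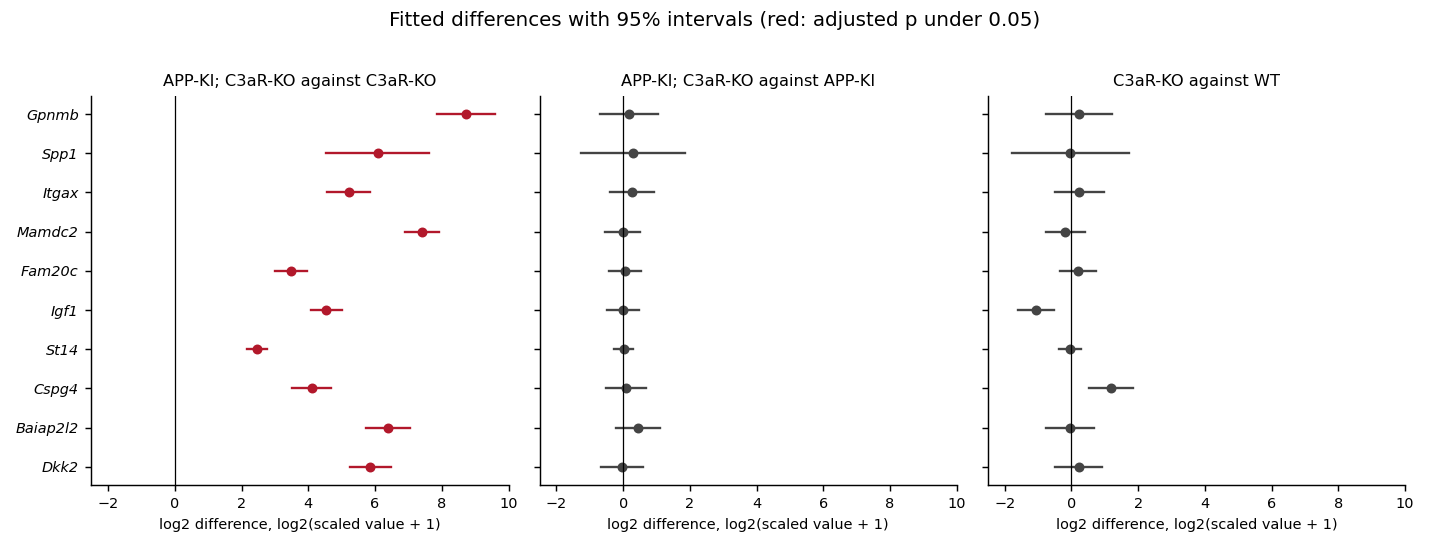
Fitted log2 differences of the 10 genes (points) with 95% intervals (lines) in 3 comparisons of the 14 libraries not selected on C3aR, on 1 shared axis of log2(scaled value + 1), red where the adjusted p from limma was under 0.05. Double mutants exceeded C3aR-KO by 2.46 to 8.74 in all 10 genes, while every interval of double mutants against APP-KI spans 0, and in C3aR-KO against WT those of Igf1 and Cspg4, the 2 genes named for that comparison, leave it out.

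Double mutants against APP-KI asked whether loss of C3ar1 moved the raised level. The APP-KI libraries also chose the genes, by their high values there, so the members' differences and intervals are not independent of that choice. None of the 10 genes was called (limma, adjusted p of 0.998 for all), and none had an unadjusted p under 0.05. Of all genes tested, 0.00806% were called, which is C3ar1 alone, and 1.18% had an unadjusted p under 0.05. DESeq2 and edgeR's quasi-likelihood test on the reads recovered from the deposited values called none of the 10 either.

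The differences ran from -0.03 for Dkk2 to 0.44 for Baiap2l2, and what the libraries leave possible differed between genes. St14 was bounded most closely, with a 95% interval of -0.28 to 0.31 around 0.01. Igf1, at 0.00 with an interval of -0.48 to 0.48, and Fam20c, at 0.05 with an interval of -0.43 to 0.53, came next. Gpnmb had an interval of -0.69 to 1.05, and Spp1 the widest, -1.26 to 1.85, its APP-KI libraries being at 209, 467 and 1947. In 8 of the 10 genes the sign of the difference changed between the library series, and Itgax and Baiap2l2 were higher in the double mutants within both. Spp1 was 0.66 higher in the double mutants within the earlier series (2 libraries against 2) and 0.31 lower within the later (3 against 1), and Gpnmb 0.42 higher and 0.58 lower. For Baiap2l2 the 5 double mutants lay at 93.7 to 122 and the 3 APP-KI libraries at 47.3, 97.1 and 109.6, so the groups overlapped, with an unadjusted p of 0.168 (limma).

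C3aR-KO against WT asked whether loss of C3ar1 moved the level without plaques. The WT libraries also took part in the choice of the genes, so this comparison is not independent of it either. None of the 10 was called by limma (adjusted p from 0.995 to 0.999), where 0.00806% of all genes were called, again C3ar1 alone. Of all genes, 2.77% had an unadjusted p under 0.05, and of the 8 members other than Igf1 and Cspg4 none did. DESeq2 on the recovered reads called 9 genes in all (0.0725%), Igf1 and Cspg4 among them. The groups of these 2 genes did not overlap, as in 18.5% of all genes tested. Since both were named for this comparison, nothing is read from that call or from the lack of overlap, and their values follow with no p.

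Spp1, Fam20c, Itgax and St14 differed by -0.03 (Spp1 and St14) to 0.23 (Itgax), and the interval of Spp1, -1.78 to 1.72, was again the widest. The near-off genes had too few reads in both groups for a comparison on this scale. Mamdc2 had means of 0.0937 in C3aR-KO, from 0, 0 and 18 reads, and 0.486 in WT, and Gpnmb of 0.495 and 0.754, with overlapping groups for both.

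Igf1 had 10.2, 30.1 and 26.0 in WT and 8.53, 4.62 and 9.62 in C3aR-KO. Every C3aR-KO library was below every WT library, by little for WT 4 and by far for WT 5 and 6. The fitted difference was -1.07 on the log2 scale (standard error 0.25). Within the later series the difference was -1.45 and within the earlier -0.61.

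Markers of border macrophages were read beside Igf1 in these libraries. The 8 markers summed to 487, 1299.8 and 1107 in WT 4, 5 and 6, and to 579, 438 and 660.3 in C3aR-KO 1, 2 and 3. WT 4 had the least Igf1 and the least of these markers among the WT libraries. C3aR-KO 1 and 3 had more of the markers than WT 4 but less Igf1. In the libraries labelled WT, C3aR-positive, Igf1 was 23.9, 16.2 and 12.4 and the markers summed to 770.2, 714 and 508. The part of these cells in the Igf1 difference was not tested. With the APP-KI alleles Igf1 stood at 148 to 361 and the markers at 222 to 425, and the part of these cells in that level was not tested either.

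Cspg4 went the other way, with 2.03, 3.32 and 4.26 in WT and 9.34, 12.03 and 4.64 in C3aR-KO. The fitted difference was 1.19 (standard error 0.31). C3aR-KO 1 and 2, which carry most of it, are both libraries with few genes detected. Within the later series alone, which has neither, C3aR-KO exceeded WT by 0.24 (1 library against 2), and without all 5 libraries that stand apart by 0.28. Without C3aR-KO 3 the difference was 1.77. The size of the Cspg4 difference thus turned on which C3aR-KO libraries were kept.

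Whether loss of C3ar1 acted differently with and without the APP-KI alleles was tested as an interaction, and none of the 10 genes was called, nor any of all 12407 genes (0%, with 1.64% at an unadjusted p under 0.05, limma). The interaction contains APP-KI against WT, the contrast that chose the genes, so the members' values are a description. It was 1.07 for Igf1 and -1.11 for Cspg4, and for Cspg4 -0.11 in the later series alone. DESeq2 called neither. The rise of Igf1 with the APP-KI alleles was accordingly 4.54 on the log2 scale without C3ar1 and 3.48 with it, and that of Cspg4 was 4.10 and 5.21, the raised levels themselves being within 0.08 of each other.

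Selection on C3aR was compared in 12 libraries with limma, and none of the 10 genes was called in WT or in APP-KI, as was no other gene (0% in both, with 4.38% and 5.22% at an unadjusted p under 0.05). Of the 10, only Cspg4 in WT had an unadjusted p under 0.05, and neither DESeq2 nor edgeR called any of them. Since the C3aR-positive libraries come from reporter mice and form a library series of their own, selection, mouse line and series cannot be told apart. In WT, the nearest to a difference was Cspg4, with 9.58, 6.88 and 8.83 in the libraries labelled WT, C3aR-positive against 2.03, 3.32 and 4.26 in WT. The log2 difference was 1.19 (standard error 0.32). The WT libraries also took part in the choice of the genes and in the naming of Cspg4. Its p is therefore not an independent test, and the difference is a description. Itgax also did not overlap, at 70.4, 65.2 and 45.5 against 34.2, 26.98 and 44.7, and the share of all genes without overlap was 23%. The libraries labelled WT, C3aR-positive are those in which C3ar1 was as low as in the knockouts.

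In APP-KI, the C3aR-positive libraries exceeded the others in the fitted difference of all 10 genes, from 0.09 for Mamdc2 to 1.08 for Spp1. The median difference over all genes tested was -0.03. All 10 overlapped, and the share of all genes without overlap is not given for this comparison, so nothing is read from these counts. Against the 1 APP-KI library of the later series, 7 of the 10 differences were below 0, that of Gpnmb at -1.06 and that of Spp1 at -0.68. Gpnmb shows the spread behind this, with 744, 439.7 and 2065 in the C3aR-positive libraries and 264, 341 and 1824 in the others.

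In the order of group means, APP-KI, C3aR-positive stood highest, the double mutants next and APP-KI after them in all 10 genes. The means of the double mutants draw on 3 later libraries of 5 and those of APP-KI on 1 of 3, and with the library series as a term Dkk2 (-0.03) and Mamdc2 (-0.02) were not higher in the double mutants. Neighbours among these 3 groups overlapped in every gene. Between APP-KI and the next group down, which was WT for Spp1, Igf1 and Mamdc2, C3aR-KO for Dkk2 and Cspg4, and WT, C3aR-positive for the other 5, no gene overlapped.

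Among the 11 libraries with the APP-KI alleles, the level varied least for St14 (151 to 296, 1.96-fold) and most for Spp1 (209 to 1947, 9.31-fold) and Gpnmb (264 to 2065, 7.81-fold). APP-KI 4 was lowest of the 11 for Spp1, Gpnmb, Itgax and Baiap2l2, and APP-KI, C3aR-positive 3 was highest for 7 genes, all but Spp1, Igf1 and Dkk2. Much of this spread lay between the library series. In 8 of the 10 genes, all 4 libraries of the later series (APP-KI 6 and double mutants 3 to 5) were above all 4 of the earlier (APP-KI 4 and 5 and double mutants 1 and 2), where 14.8% of all genes were. Gpnmb had 264 to 461 in the earlier and 956 to 1824 in the later series, a ratio of means of 3.94, and Spp1 209 to 858 and 1517 to 1947, a ratio of 3.66. Cspg4 (119 to 166 and 157 to 200.1) and Baiap2l2 (47.3 to 118 and 109.6 to 122) overlapped.

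3 of the 4 earlier libraries are among the 5 that stand apart by their number of genes, and the later series holds 3 double mutants and 1 APP-KI library against 2 and 2 in the earlier. The part of the number of genes detected in this difference was not tested. Without the APP-KI alleles, the 3 later libraries were above the 3 earlier ones for Dkk2, Mamdc2 and St14 (10.2% of all genes), St14 at 38.9 to 46.3 against 25.0 to 34.6. The other 7 genes overlapped between the series there. Their ratios of later to earlier means were 2.82 for Igf1, 1.92 for Gpnmb, 1.56 for Spp1, 1.35 for Fam20c and 1.23 for Baiap2l2. Those of Itgax (0.99) and Cspg4 (0.52) were below 1. The later libraries are 2 of WT and 1 of C3aR-KO, the earlier 1 and 2.

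**Figure D3:**
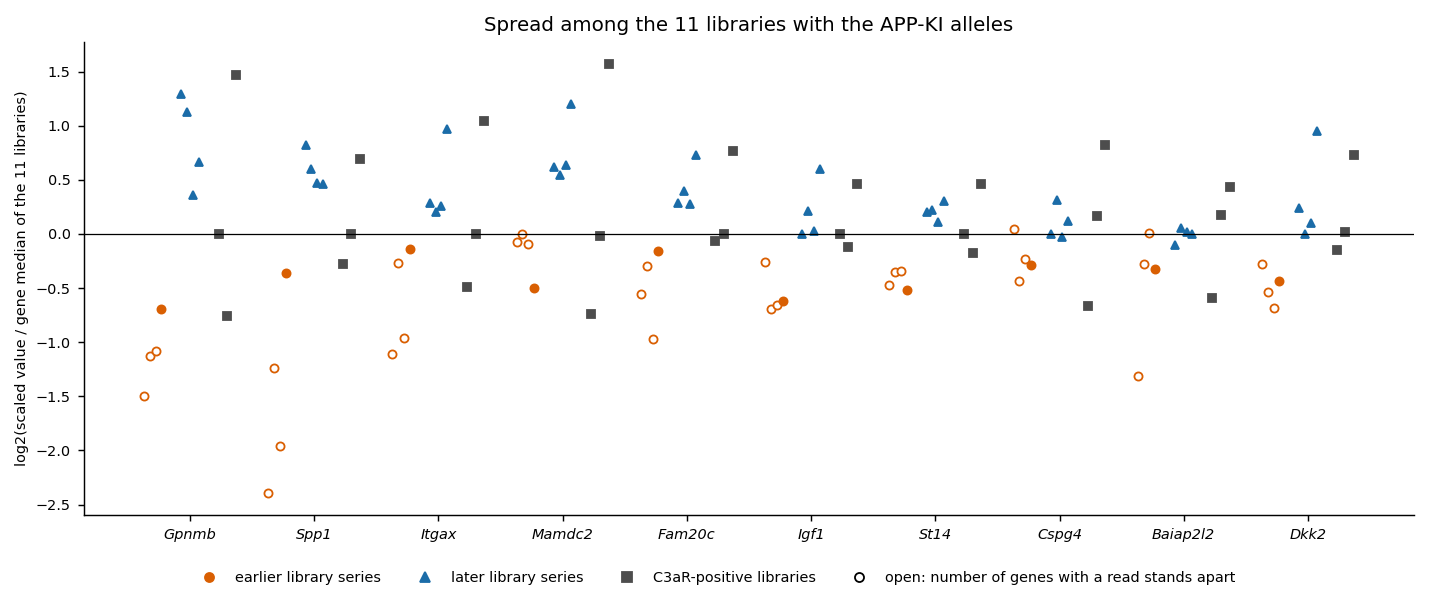
log2 ratio of each scaled value to the gene's median over the 11 libraries with the APP-KI alleles, 1 point per library, for the 10 genes. Circles are the earlier series, triangles the later series, squares the C3aR-positive libraries and open circles the libraries that stand apart; in 8 genes every triangle lies above every circle, and Cspg4 and Baiap2l2 are the exceptions.

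The genes varied together among these 11 libraries. Over the 45 pairs, Pearson's r of the log2 levels had a median of 0.76 and ran from 0.37 for Igf1 with Baiap2l2 to 0.95 for Fam20c with Itgax, a description of points that share libraries, depth and series. Spp1 and Fam20c, a secreted phosphoprotein and the kinase for such proteins, had 0.90. Over all 20 libraries the genes closest to the mean of the 10 members were Atp6v0d2, a subunit of the proton pump of lysosomes (0.993), Cst7 (0.992), Flt1, a receptor for vascular endothelial growth factor (0.991), and Csf1, a ligand of the microglial receptor Csf1r (0.988). C77080, Arnt2, Kcnj2 and Aplp2 followed, at 0.984 to 0.986, out of 12364 genes compared. These values mostly repeat the split between libraries with and without the APP-KI alleles.

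Promoter sequences of members that rose together are shown for Gpnmb, Itgax, Igf1 and Dkk2, as 300 bases from 250 before to 50 after a start site, from RefSeq on GRCm38.p6 and all on the plus strand. Of the 10 genes, 7 had an entry, with 8 windows in all, and Mamdc2, St14 and Baiap2l2 had none. Capitals mark TGANTCA (the AP-1 consensus, TGACTCA or TGAGTCA, with any base allowed in the middle), GAGGAA (a core bound by PU.1, the lineage factor of microglia) and TATAAA (a core promoter box), searched on both strands. The windows are chr6:49036268-49036567 for Gpnmb, chr7:128129300-128129599 for Itgax, chr10:87860861-87861160 for Igf1 and chr3:132085042-132085341 for Dkk2.
Gpnmb: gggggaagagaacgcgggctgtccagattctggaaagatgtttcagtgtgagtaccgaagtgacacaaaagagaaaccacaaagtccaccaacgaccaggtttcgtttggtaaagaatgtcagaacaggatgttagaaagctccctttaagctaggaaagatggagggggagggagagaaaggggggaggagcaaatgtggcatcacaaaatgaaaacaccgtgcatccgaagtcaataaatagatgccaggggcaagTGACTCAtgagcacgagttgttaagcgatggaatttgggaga
Itgax: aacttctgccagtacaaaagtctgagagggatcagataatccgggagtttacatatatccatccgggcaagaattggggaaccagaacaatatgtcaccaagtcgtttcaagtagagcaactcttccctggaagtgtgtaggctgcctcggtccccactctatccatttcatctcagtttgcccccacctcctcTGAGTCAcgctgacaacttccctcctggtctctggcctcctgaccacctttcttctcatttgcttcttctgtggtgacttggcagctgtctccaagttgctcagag
Igf1: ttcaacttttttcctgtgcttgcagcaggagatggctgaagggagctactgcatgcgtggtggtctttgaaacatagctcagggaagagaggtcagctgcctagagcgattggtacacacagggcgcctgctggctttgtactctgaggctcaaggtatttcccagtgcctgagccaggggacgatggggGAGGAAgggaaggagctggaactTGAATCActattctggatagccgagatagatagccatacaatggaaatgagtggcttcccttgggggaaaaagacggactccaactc
Dkk2: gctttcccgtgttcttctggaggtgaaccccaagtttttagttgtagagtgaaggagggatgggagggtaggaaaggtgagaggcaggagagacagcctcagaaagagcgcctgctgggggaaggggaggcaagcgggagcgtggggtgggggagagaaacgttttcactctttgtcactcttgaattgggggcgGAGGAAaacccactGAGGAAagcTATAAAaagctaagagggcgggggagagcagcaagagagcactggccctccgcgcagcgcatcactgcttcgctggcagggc

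TGANTCA stood in 3 of the 8 windows, those of Gpnmb, Igf1 and Itgax, and in 7.81% of all 32851 windows. The stretch in Gpnmb is TGACTCA and that in Itgax TGAGTCA, while that in Igf1, TGAATCA, lies outside the AP-1 consensus. GAGGAA stood in 3, of Dkk2, Igf1 and Spp1, and in 28.3% of all. TATAAA stood in 2, of Dkk2 and Spp1, and in 13.6% of all. ACGTG, a form of the core of HIF sites (19.6% of all windows), stood in none of the 8. CACGTG, which contains it (7.15%), and CATGTG (14.2%), both E-boxes that MiT factors bind, stood in none either. GCGTG, another form of the HIF core, was not counted. The windows of Igf1 and Dkk2 hold GCGTG on the strand shown, so the lack of ACGTG is not a lack of HIF cores. A match describes letters in a short window and no binding was measured here.

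Lists of partners and relatives of the 10 genes were read from the same fit. In double mutants against C3aR-KO, lists of 14 genes of the IGF-1 pathway (9 tested), 8 secreted-protein kinases and relatives of osteopontin (3 tested) and 10 relatives of Gpnmb with the MiT factors (5 tested) had no gene called, with 0, 0 and 3 at an unadjusted p under 0.05 (limma). Of all 12407 genes tested, 1255 were higher and 1280 lower at that unadjusted p (limma), so nothing is read from such counts in short lists. Of 13 partners of osteopontin and CD11c, all tested, none was higher, 5 had an unadjusted p under 0.05 and Itga9, an integrin subunit that binds osteopontin, was lower, at 82.6 ± 24.9 (SD, n = 5) against 197 ± 80.6 (SD, n = 3), a log2 difference of -1.16 (adjusted p = 0.0246, limma). The medians of these lists were -0.03, -0.62, -0.34 and -0.01, beside -0.03 over all genes.

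In the next 5 lists 1 or 2 genes each were called, where 6.93% of all genes were. Of 15 partners and relatives of matriptase (9 tested), Plau, the urokinase plasminogen activator, rose from 118 ± 36.6 to 574 ± 143 (2.23 on the log2 scale) and its receptor gene Plaur from 40.7 ± 36.1 to 94.5 ± 11.3 (1.64). Of 11 chondroitin sulfate proteoglycan genes (9 tested), Chst11, a chondroitin sulfotransferase, rose by 1.65 and Cd74, the invariant chain that can carry chondroitin sulfate, by 1.84. Of 10 proteins with MAM domains or relatives (7 tested), Nrp1 and Nrp2, co-receptors for semaphorins and growth factors, rose by 1.59 and 0.87. Of 16 Wnt antagonists and receptors (8 tested), Fzd7, a Wnt receptor, rose by 1.83. Of 10 I-BAR and membrane protrusion genes (9 tested), Mtss1 and Eps8 were lower, by -1.19 and -1.37, where Baiap2l2 was higher. At an unadjusted p under 0.05 these lists had 2, 2, 2, 1 and 3 genes, beside the counts over all genes given above.

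These 4 lists with genes called higher had medians of -0.19, 0.20, -0.14 and -0.06, the I-BAR list 0.09. The list with the most genes called was that of 20 genes known from disease-associated microglia. Of these, 14 of 19 tested were called higher and none lower, where 3.96% of all genes were called higher. The median of the list was 1.46, and the largest differences were those of Cst7 (7.81), Lpl (5.54) and Csf1 (4.26). In double mutants against APP-KI and in C3aR-KO against WT, no gene of any of the 10 lists was called (limma). At an unadjusted p under 0.05 were 2 and 3 of the 91 genes tested, beside 1.18% and 2.77% of all genes.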

How the data were processed

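Per the labels and the study's methods, RNA of sorted microglia was made into libraries with the Takara SMARTer Total RNA Pico v3 kit, reads were trimmed with cutadapt and aligned to mm10 with TopHat2, and reads per gene were counted with featureCounts. How the unique molecular identifiers and strand were handled in counting is not given in the sources used here. The deposited signal values carry an FPKM label, but each is the gene's read count divided by the 75th percentile of its library, with no gene length: whole reads (within 0.01 of a read) came back for 100% of values, and the authors' DESeq2 results were not used. Each value was multiplied by 35.2, and genes with a mean of at least 1 were tested with limma 3.58.1 on log2(scaled value + 1), with Benjamini-Hochberg adjustment and a threshold of 0.05.

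The 14 libraries not selected on C3aR were fitted together with the library series as a term, and the 12 WT and APP-KI libraries, for the comparisons of the sorts, without it. Alternatives were edgeR 4.0.16 and DESeq2 1.42.0 on recovered reads, other filters, pseudocounts and scalings, fits of fewer libraries, and each library left out. The fits were tested on simulated data. Members, gene lists and marker lists were chosen with earlier results of these data known. Other genes are named by rule: the 8 most like the members, up to 3 called per list, C3ar1, and neighbours in rank. Shown reads and intervals cover counting and library spread only. No 2 libraries of a group agreed within sampling noise. Gene positions are from GENCODE M21 (GRCm38), promoters from RefSeq (GRCm38.p6).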

Additional observations from a re-analysis of the deposited data

Results flagged for a closer look

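Baiap2l2 in double mutant 2 had a scaled value of 93.7, below the other 4 double mutants (117 to 122), and the gap to the nearest of them was 0.827 of the group's whole range. Only the double mutants have enough libraries (5) for this check, which was made for each of the 10 genes with a limit that chance passes in about 1 in 20 groups, and no other gene passed it. The library lay inside the range of the 3 APP-KI libraries (47.3 to 109.6). Without it, Baiap2l2 stayed called in double mutants against C3aR-KO, where it had to differ, and uncalled against APP-KI.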

How the results depend on the processing

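In double mutants against C3aR-KO, 10 of 10 genes were called under all 26 alternatives, and no difference changed sign. Gpnmb, Mamdc2, Dkk2 and Baiap2l2 had to differ here, and Igf1 and Cspg4 were named with their C3aR-KO values known. The count is therefore read only for the other genes. In double mutants against APP-KI, in the interaction and in both comparisons of the sorts, 0 were called under every alternative run. In C3aR-KO against WT, DESeq2 called 2 (Igf1 and Cspg4), and leaving out single libraries gave 0 to 1 (Cspg4, without C3aR-KO 3). Both genes were named for this comparison, so nothing is read from these calls. The fits of the later series only and without the 5 libraries that stand apart were chosen after seeing the data.

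In double mutants against APP-KI, differences near 0 changed sign under some alternatives, none of them called, and the cause was not tested. In the later series only they were -0.31 for Spp1, 0.11 for Dkk2, 0.17 for Mamdc2 and -0.58 for Gpnmb, and without the 5 libraries that stand apart -0.093 for Spp1, 0.085 for Dkk2, 0.083 for Mamdc2, -0.68 for Gpnmb and -0.044 for St14. Without the series term Dkk2 was 0.18 and Mamdc2 0.18, and with only the 2 groups Gpnmb was -0.0066 and St14 -0.0044. Igf1 was -0.0066 with a pseudocount of 0.1, -0.0022 with median ratio scaling, and -0.019 by edgeR and by DESeq2. Leaving out single libraries gave -0.12 to 0.69 for Spp1, -0.18 to 0.16 for Igf1, -0.17 to 0.054 for Dkk2, -0.14 to 0.13 for Mamdc2, -0.033 to 0.26 for Fam20c, -0.13 to 0.83 for Gpnmb, -0.051 to 0.18 for Cspg4 and -0.026 to 0.060 for St14.

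Replicate numbers do not pair the libraries: same-numbered C3aR-KO and double mutant libraries had correlations of 0.011, -0.037 and 0.245 between their deviations. With the replicate block (numbers 1 to 3, those groups only) 10 of 10 genes were still called, and 151 of all genes instead of 860. The count of 10 is again read only for Spp1, Fam20c, Itgax and St14. The count over all genes was 443 with only the 2 groups, 4868 in the later series only and 4158 without the 5 libraries that stand apart.

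With 3 libraries in most groups, a double mutant against APP-KI difference within the intervals given is not excluded. The depth limits the near-off genes, whose WT levels rest on up to 123 reads in a library.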
